A study of Arabidopsis thaliana with 8 samples.

Results

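The 26S proteasome subunit genes are the loci of Arabidopsis thaliana that encode the subunits of the proteasome, the complex that degrades ubiquitinated proteins. They were taken as a fixed list of 44 loci, and each of the 44 had values among the 23050 loci of the RNA-seq table that carried any. The list holds 23 genes of the core particle, 12 of them for alpha and 11 for beta subunits, and 21 genes of the regulatory particle, 10 for RPT and 11 for RPN subunits. Rosette leaves of 6-week-old plants were measured in the *kaku4* mutant and in the wild type (WT, Columbia), with 3 RNA-seq libraries per genotype described as independent biological samples. The mutant carries a T-DNA insertion in *KAKU4*, a gene for a nuclear lamina component. It was 1 insertion line, which the sample labels name *kaku4-2* and the methods call *kaku4*. The comparison asks which genes differ between *kaku4* and WT leaves of the same age. The paper reports that *kaku4* leaves at this age were further into senescence, with less chlorophyll, more ion leakage and more H2O2 and stress hormones. It also reports smaller plants. Effects of the mutation and of leaf stage therefore cannot be told apart here.

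The 26S proteasome joins a barrel, the 20S core particle, to a 19S regulatory particle at its ends. The core is a stack of alpha and beta rings. Alpha subunits form the gate of the barrel, and the proteolytic sites sit inside it on the beta subunits PBA, PBB and PBE, with caspase-like, trypsin-like and chymotrypsin-like specificity. In the regulatory particle, a ring of RPT ATPases unfolds substrates and opens the gate, while the RPN subunits bind ubiquitin chains, remove them and hold the particle together. In Arabidopsis many subunits are encoded by paralogous genes, and when proteasome activity is limiting the transcription factors NAC53 and NAC78 raise proteasome genes through promoter elements with the core TGGGC. In leaves the ubiquitin-proteasome pathway serves hormone signalling, immunity and the turnover of proteins during senescence.

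Values were FPKM (fragments relative to transcript length and sequencing depth). *KAKU4* (AT4G31430) had 0.739, 1.26 and 0.943 FPKM in the *kaku4* libraries, against 6.41, 5.45 and 5.71 FPKM in the WT libraries, so that the genotypes did not overlap. The FPKM of a library summed to between 953041 and 1188694 in *kaku4* and between 1412227 and 1559944 in WT. Chloroplast-encoded genes made up 30590 FPKM in replicate 1 of *kaku4* and 44360 FPKM in replicate 1 of WT, and between 499 and 945 FPKM in the other 4 libraries. The leaf markers *RBCS1A* and *RCA* were abundant, with at least 12430 and 1822 FPKM in every library, although *CAB1* was listed at 0 in 5 libraries and at 40370 FPKM in replicate 2 of *kaku4*. Of the 5 floral markers 4 stayed under 1 FPKM in all libraries, with *LAP6* reaching 1.98 FPKM, and the seed and root markers with values also stayed under 1 FPKM. Over all genes tested the log2 fold change also followed transcript length (Spearman's rho = 0.59 over 20464 genes, a description, since all points share the same 6 libraries). For this reason values are also given with the length trend removed, that is, after a smooth curve of each gene's deviation against transcript length was subtracted from each library.

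All 44 proteasome genes passed the filter of a mean of at least 0.1 FPKM. At an adjusted p of at most 0.05 (limma on log2(FPKM + 0.1), Benjamini-Hochberg over 20618 genes), 13 of the 44 rose in *kaku4*, 11 fell and 20 did not pass. Of all genes tested, 28.6% rose and 28.3% fell by the same criterion, so the shares over the whole list were close to the background. The median log2 fold change over the 44 genes was 0.00, as it was over all genes. When a 2-fold difference (log2 fold change of 1 or more, or of -1 or less) was also required, 7 proteasome genes rose and 2 fell, against a background of 16.4% and 11.5%. The list divided by particle. All 13 genes that rose encode regulatory-particle subunits and all 11 that fell encode core subunits. However, 5 to 7 core genes rose when libraries were quantile normalized, rescaled to a common sum or had the length trend removed. With the length trend removed *EMB2107*, an RPN gene, also fell. The division holds for the listed genes only. Of 12 further isoform genes outside the list 4 rose and 4 fell, near the shares over all genes. Both genes of the lid subunit DSS1 were among those that fell. In the plot of all 44 log2 fold changes the core genes lie between -1.23 and 0.19 and the regulatory genes between -0.31 and 1.33. As leaves were measured in bulk, fewer cells of a type and less RNA per cell cannot be told apart here. Leaving out replicate 2 of *kaku4* reduced the 2 counts with the fold criterion to 4 and 1, and leaving out replicate 1 of *kaku4* raised the lower count to 6.

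**Figure D1:**
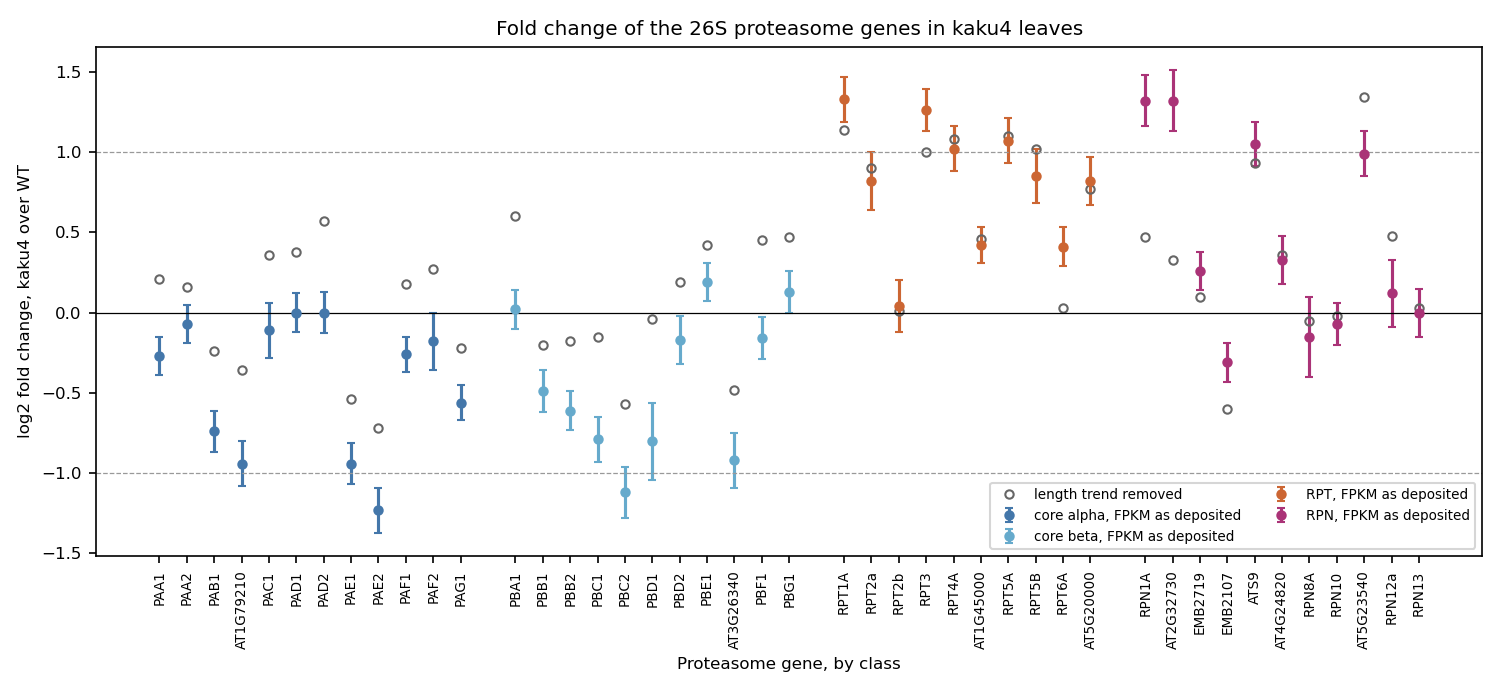
Log2 fold change of *kaku4* over WT for each of the 44 proteasome genes (filled points, limma estimate with its standard error, 3 libraries per genotype), and the same with the length trend removed (open points). Dashed lines mark a log2 fold change of -1 and 1. As deposited, the filled points of the core genes lie at or below 0.19, and those of the RPT genes lie between 0.04 and 1.33.

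Core alpha subunits. Of the 12 alpha genes 5 fell in *kaku4*, none rose and 7 did not pass, where 28.3% of all genes fell and 28.6% rose. In 7 of the 12 every *kaku4* library was below every WT library, a pattern that 31.3% of all genes tested showed. *PAE2*, 1 of the 2 genes of subunit PAE, had 35.8, 27.5 and 29.1 FPKM in *kaku4*, against 78.1, 65.0 and 73.1 FPKM in WT. It had the lowest fold change of the list (log2 fold change -1.23, SE 0.14, adjusted p = 4.34e-04). Its paralog *PAE1* had 35.4, 27.3 and 29.3 FPKM in *kaku4*, against 55.9, 61.3 and 59.2 FPKM in WT, and fell by 0.94 on the log2 scale (SE 0.13, adjusted p = 8.07e-04). In both genes all 3 *kaku4* libraries were below all 3 WT libraries. AT1G79210, the locus for PAB beside *PAB1*, had 44.96, 33.5 and 38.4 FPKM in *kaku4*, against 77.8, 67.2 and 77.6 FPKM in WT (log2 fold change -0.94, adjusted p = 0.00108). *PAB1* fell by 0.74 and *PAG1*, the single gene of its subunit, fell by 0.56 (adjusted p = 0.00199 and 0.00306). Neither passed when libraries were rescaled to a common sum (log2 fold change -0.22 for *PAB1* and -0.04 for *PAG1*, adjusted p = 0.166 and 0.795) or with the length trend removed (-0.24 and -0.22, adjusted p = 0.069 and 0.0739). The genes of PAA, PAC, PAD and PAF did not pass, with log2 fold changes between -0.27 for *PAA1* and 0.00 for *PAD1* and *PAD2*. *PAD1* and *PAD2* passed as higher after quantile normalization, after rescaling to a common sum and with the length trend removed. When libraries were centred on their median, *PAA1* and *PAF1* passed as lower (adjusted p = 0.0153 and 0.011). *PAF2* overlaps a gene on the other strand by 805 exonic bases, and the strand of the reads is not stated, so its level is uncertain.

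Core beta subunits. Among the 11 beta genes 6 fell, none rose and 5 did not pass, beside 28.3% of all genes that fell and 28.6% that rose. *PBA1*, the single gene for the caspase-like subunit, averaged 89.3 ± 3.71 FPKM in *kaku4* and 87.9 ± 7.06 FPKM in WT (SD, n = 3 each). It did not pass, but it passed as higher after rescaling to a common sum (log2 fold change 0.54, adjusted p = 0.0087). The same held after quantile normalization (0.47, adjusted p = 0.0167) and with the length trend removed (0.60, adjusted p = 0.00748). For the trypsin-like subunit *PBB1* fell by 0.49 and *PBB2* fell by 0.61 (adjusted p = 0.0113 and 0.00262), although after rescaling to a common sum *PBB1* was at 0.02 and *PBB2* at -0.10 (adjusted p = 0.903 and 0.53), and with the length trend removed they were at -0.20 and -0.18 (adjusted p = 0.166 and 0.146). *PBB1* was also at 0.02 after quantile normalization. Of the 2 genes of the chymotrypsin-like subunit 1 fell. This gene, AT3G26340, had 21.2, 14.6 and 14.5 FPKM in *kaku4*, against 32.8, 31.5 and 29.7 FPKM in WT, and fell by 0.92 (SE 0.17, adjusted p = 0.00224). *PBE1* had 85.3, 80.3 and 76.2 FPKM in *kaku4*, against 73.0, 64.4 and 74.5 FPKM in WT, which did not overlap but did not pass the test (log2 fold change 0.19, adjusted p = 0.20). *PBE1* passed as higher after rescaling to a common sum (0.71, adjusted p = 0.00145) and after quantile normalization (0.61, adjusted p = 0.0037). It also passed with the length trend removed (0.42, adjusted p = 0.0161). Among the structural beta subunits *PBC2* was the lowest, with 35.3, 23.3 and 27.3 FPKM in *kaku4*, against 66.7, 58.2 and 59.8 FPKM in WT (log2 fold change -1.12, SE 0.16, adjusted p = 9.47e-04). Its paralog *PBC1* fell by 0.79 (adjusted p = 0.00192), but did not pass after rescaling to a common sum (log2 fold change -0.27, adjusted p = 0.124), after quantile normalization (-0.28, adjusted p = 0.0884) or with the length trend removed (-0.15, adjusted p = 0.349). *PBD1* had 89.2, 50.1 and 58.2 FPKM in *kaku4*, against 142.8, 93.3 and 104 FPKM in WT (log2 fold change -0.80, adjusted p = 0.0194). With the length trend removed it was at -0.04 (adjusted p = 0.872), and after rescaling to a common sum at -0.29 (adjusted p = 0.205). In *PBD1* replicate 1 was the highest library of each genotype, and the call was lost without replicate 2 or 3 of *kaku4* or without replicate 1 of WT (adjusted p = 0.0673, 0.061 and 0.0652). *PBD2*, *PBF1* and *PBG1* had log2 fold changes of -0.17, -0.16 and 0.13 and did not pass, and *PBB2*, *PBD2* and *PBF1* overlap genes on the other strand by 105 to 217 exonic bases. *PBG1* passed as higher in the same settings as *PBE1*, and *PBD2* after rescaling to a common sum. *PBF1* passed as higher with the length trend removed (adjusted p = 0.0494) and as lower when libraries were centred on their median (adjusted p = 0.0458).

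RPT ATPases. Of the 10 RPT genes 9 rose in *kaku4* and none fell, where 28.6% of all genes rose and 28.3% fell. In the same 9 every *kaku4* library was above every WT library, a pattern that 33.5% of all genes tested showed. *RPT1A*, the only RPT1 gene of the list, had 49.7, 55.5 and 43.9 FPKM in *kaku4*, against 21.9, 18.4 and 18.6 FPKM in WT. This was the highest fold change of the list, 2.52-fold (log2 fold change 1.33, SE 0.14, adjusted p = 3.02e-04). *RPT1A* overlaps a gene on the other strand by 320 exonic bases. *RPT3* had 75.0, 92.4 and 73.9 FPKM in *kaku4*, against 34.3, 31.7 and 34.2 FPKM in WT, a 2.39-fold difference (log2 fold change 1.26, SE 0.13, adjusted p = 3.00e-04). It was the most abundant RPT gene in both genotypes. *RPT5A* had 44.4, 55.0 and 43.1 FPKM in *kaku4*, against 23.3, 23.6 and 20.4 FPKM in WT (log2 fold change 1.07, adjusted p = 6.05e-04). *RPT4A* had 21.6, 26.9 and 24.0 FPKM in *kaku4*, against 11.1, 11.6 and 12.9 FPKM in WT (log2 fold change 1.02, adjusted p = 6.67e-04). In these genes each *kaku4* library was well above the highest WT library.

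The other RPT genes differed by less than 2-fold. *RPT2a*, which is known for its part in meristem maintenance and leaf size, had 36.2, 51.5 and 47.1 FPKM in *kaku4*, against 20.8, 28.1 and 27.5 FPKM in WT (log2 fold change 0.82, SE 0.18, adjusted p = 0.00494). *RPT2b* had 9.04, 13.0 and 9.84 FPKM in *kaku4*, against 10.6, 9.61 and 10.3 FPKM in WT, with a log2 fold change of 0.04 (adjusted p = 0.838), and it was the RPT gene that did not pass. *RPT5B*, the minor RPT5 gene, had 7.86, 11.3 and 8.19 FPKM in *kaku4*, against 4.998, 5.18 and 4.73 FPKM in WT (log2 fold change 0.85, adjusted p = 0.00388). RPT6 is encoded by 2 loci that neighbour each other on chromosome 5. AT5G20000 had 14.3, 14.3 and 15.2 FPKM in *kaku4*, against 10.02, 7.70 and 7.27 FPKM in WT (log2 fold change 0.82, adjusted p = 0.00263). *RPT6A* had 28.3, 32.2 and 29.3 FPKM in *kaku4*, against 24.7, 21.4 and 21.6 FPKM in WT (log2 fold change 0.41, adjusted p = 0.0209). AT1G45000, the second RPT4 gene, had 37.2, 42.0 and 39.3 FPKM in *kaku4*, against 29.7, 28.2 and 30.4 FPKM in WT (log2 fold change 0.42, adjusted p = 0.0126). The smaller rises of *RPT6A* and AT1G45000 no longer passed when libraries were centred on their median (adjusted p = 0.17 and 0.112), and *RPT6A* was at 0.03 with the length trend removed. Without replicate 2 of WT neither passed (adjusted p = 0.0873 for *RPT6A* and 0.061 for AT1G45000), and *RPT6A* also did not pass without replicate 3 of WT or replicate 2 or 3 of *kaku4* (adjusted p between 0.0517 and 0.0729).

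**Figure D2:**
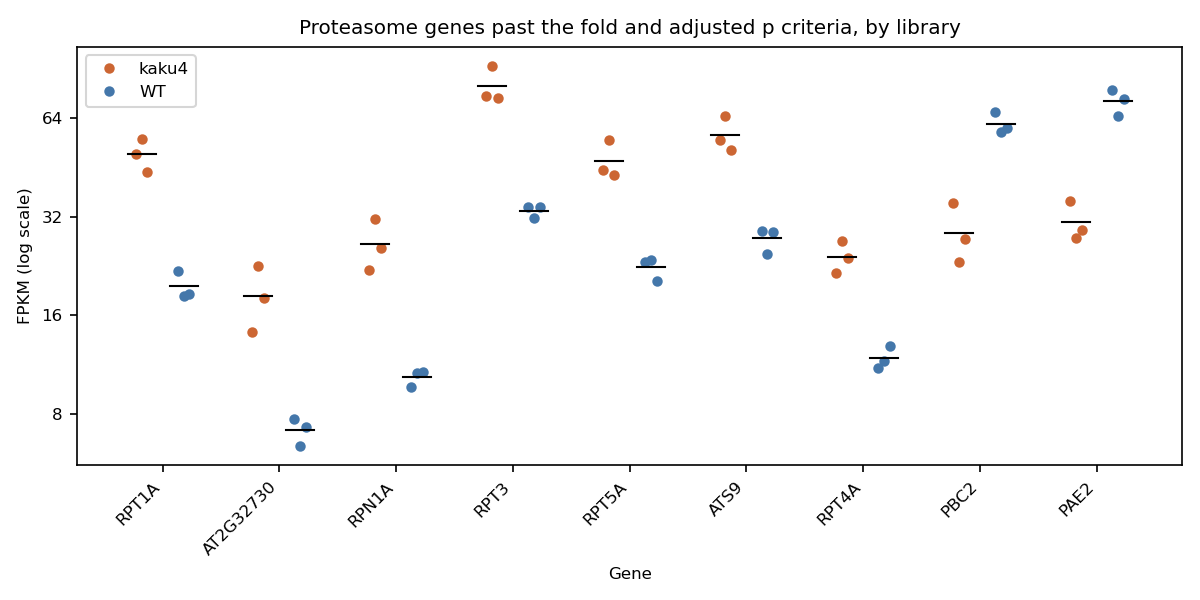
FPKM on a log scale in each of the 3 *kaku4* and 3 WT libraries for the 9 proteasome genes past both the fold and adjusted p criteria, with a line at each genotype's mean. The *kaku4* and WT points do not overlap in any of the 9 genes, with *kaku4* above WT in 7 and below WT in *PBC2* and *PAE2*.

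Because the RPT genes moved together, the sequence before them was searched for TGGGC, the core of the element that NAC53 and NAC78 recognise, on both strands (GCCCA is its reverse complement). The window was the 250 bases before the annotated gene start. A match was present in 43.2% of the 44 members and in 22.7% of 27443 nuclear protein-coding genes. By class it was 41.7% for alpha, 63.6% for beta, 30.0% for RPT and 36.4% for RPN genes. The RPT share was thus the lowest of the classes and the nearest to that of all genes, and the highest was in the beta genes, none of which rose. The 3 RPT genes with a match were *RPT1A*, *RPT2a* and *RPT3*. Within the RPT genes the median log2 fold change was 1.26 for the 3 genes with a match and 0.82 for the 7 without. Within the RPN genes it was 0.65 for 4 genes with and 0.12 for 7 without, within the alpha genes -0.11 for 5 with and -0.56 for 7 without, and within the beta genes -0.49 for 7 with and -0.48 for 4 without. These medians over few genes are a description, and over all 44 genes, where the classes are pooled, the median was 0.00 for both the 19 with and the 25 without. The last 100 bases before the start of these 3 genes, of *RPT2b* and of *RPN1A* are shown as examples of genes that rose and have matches, set beside a paralog with no match in its window, and those of *PBE1* and AT3G26340 because there the gene that fell has the matches. Other genes that rose, such as AT2G32730, *RPT5A* and *RPT4A*, have no match in the window. Matches are in capitals, sequences run 5′ to 3′ on the strand of the gene, and all are from the RefSeq TAIR10.1 genome.
RPT1A (chr1:20068501-20068600, minus strand): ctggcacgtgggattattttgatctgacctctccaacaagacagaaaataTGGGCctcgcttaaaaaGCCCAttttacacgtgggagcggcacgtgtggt
RPT2a (chr4:14312183-14312282, plus strand): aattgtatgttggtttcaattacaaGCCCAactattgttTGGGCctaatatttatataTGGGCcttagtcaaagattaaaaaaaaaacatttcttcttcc
RPT2b (chr2:8692467-8692566, plus strand): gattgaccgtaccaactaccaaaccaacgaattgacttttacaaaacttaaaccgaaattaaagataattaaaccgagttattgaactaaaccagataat
RPT3 (chr5:23568952-23569051, plus strand): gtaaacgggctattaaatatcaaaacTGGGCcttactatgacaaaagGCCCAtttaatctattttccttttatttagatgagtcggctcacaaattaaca
RPN1A (chr2:8858862-8858961, plus strand): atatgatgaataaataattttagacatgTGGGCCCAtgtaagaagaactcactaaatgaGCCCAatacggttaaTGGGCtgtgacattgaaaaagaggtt
PBE1 (chr1:4452090-4452189, plus strand): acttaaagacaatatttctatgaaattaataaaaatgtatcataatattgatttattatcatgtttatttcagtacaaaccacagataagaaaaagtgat
AT3G26340 (chr3:9652937-9653036, minus strand): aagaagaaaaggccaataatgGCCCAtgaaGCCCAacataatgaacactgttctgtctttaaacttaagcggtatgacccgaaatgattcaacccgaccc
*RPT1A* has matches at 50 and 33 bases before its start, *RPT2a* at 75, 61 and 42, and *RPT3* at 74 and 53. In *RPN1A* the first 2 of 4 matches overlap in the palindrome TGGGCCCA. *RPT2b* and *PBE1* have none in 250 bases, while AT3G26340 has 2, at 79 and 70. These matches are a description of letters and not of binding.

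RPN subunits. Of the 11 RPN genes 4 rose, none fell and 7 did not pass, and the share that rose was near the 28.6% of all genes. The 2 large scaffold subunits, which hold the base of the particle together and dock ubiquitin receptors, rose most. *RPN1A* had 22.1, 31.5 and 25.7 FPKM in *kaku4*, against 9.66, 10.7 and 10.8 FPKM in WT, or 2.50-fold (log2 fold change 1.32, SE 0.16, adjusted p = 4.52e-04). AT2G32730, annotated as an RPN2 subunit, had 14.3, 22.6 and 18.1 FPKM in *kaku4*, against 7.75, 6.41 and 7.32 FPKM in WT (log2 fold change 1.32, SE 0.19, adjusted p = 7.94e-04). These are also the longest transcripts of the list, with 3091 and 3517 nucleotides. With the length trend removed their log2 fold changes were 0.47 and 0.33, and that of AT2G32730 did not pass (adjusted p = 0.0736).

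The other RPN genes that rose encode lid subunits. ATS9, the gene for RPN6, had 54.9, 65.0 and 51.1 FPKM in *kaku4*, against 29.0, 24.7 and 28.7 FPKM in WT (log2 fold change 1.05, adjusted p = 6.34e-04). AT5G23540, which belongs to the family of RPN11, the lid protease that removes ubiquitin chains, had 59.3, 57.1 and 53.0 FPKM in *kaku4*, against 33.7, 26.1 and 26.1 FPKM in WT (log2 fold change 0.99, adjusted p = 8.15e-04). It is a short transcript of 1334 nucleotides, and with the length trend removed its log2 fold change was 1.34, the highest of the 44. The ubiquitin receptors *RPN10* and *RPN13* had log2 fold changes of -0.07 and 0.00, and *RPN10* was the most abundant RPN gene with 86.6 ± 10.7 FPKM in *kaku4* and 90.7 ± 5.50 FPKM in WT. *EMB2719*, AT4G24820 and *RPN12a* had log2 fold changes of 0.26, 0.33 and 0.12 and did not pass, but all 3 passed as higher after rescaling to a common sum (0.77, 0.84 and 0.64, adjusted p = 0.00246, 0.00558 and 0.0197). *EMB2719* and AT4G24820 also passed after quantile normalization (adjusted p = 0.00611 and 0.0166), and AT4G24820 with the length trend removed and without replicate 1 of *kaku4* (adjusted p = 0.0498 and 0.0417). *RPN8A* had 21.9, 34.7 and 31.1 FPKM in *kaku4*, against 22.4, 37.9 and 37.8 FPKM in WT, so that replicate 1 was low in both genotypes. *EMB2107*, the RPN5 gene of the list, was below WT in every *kaku4* library at a log2 fold change of -0.31 (adjusted p = 0.0549), and passed without replicate 1 of WT (adjusted p = 0.0294) and with the length trend removed (log2 fold change -0.60, adjusted p = 0.00333). It overlaps a gene on the other strand by 279 exonic bases.

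Summed over the listed genes of each subunit, the transcript level in WT was higher for every core subunit than for every RPT subunit. Isoform genes outside the list, such as the RPN2-type gene AT1G04810, were not added, so the sums are not totals per subunit. Core sums averaged 51.8 to 154.9 FPKM in *kaku4* and 56.1 to 236.7 FPKM in WT, and RPT sums 44.5 to 80.4 FPKM in *kaku4* and 19.6 to 41.3 FPKM in WT. All 6 RPT sums were higher in every *kaku4* library than in every WT library. Of the 7 alpha sums 5 and of the 7 beta sums 2 were lower in every *kaku4* library. Among all genes tested, taken singly, 33.5% were higher and 31.3% lower in every *kaku4* library. The beta count was near the latter share. The sum for PAE averaged 61.5 ± 8.64 FPKM in *kaku4* and 130.9 ± 4.07 FPKM in WT. That for PBE, in which the 2 genes differed, averaged 97.3 ± 8.19 FPKM in *kaku4* and 102 ± 5.32 FPKM in WT (SD, n = 3 each). Of the 11 RPN sums 5 were higher and 1 lower without overlap.

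**Figure D3:**
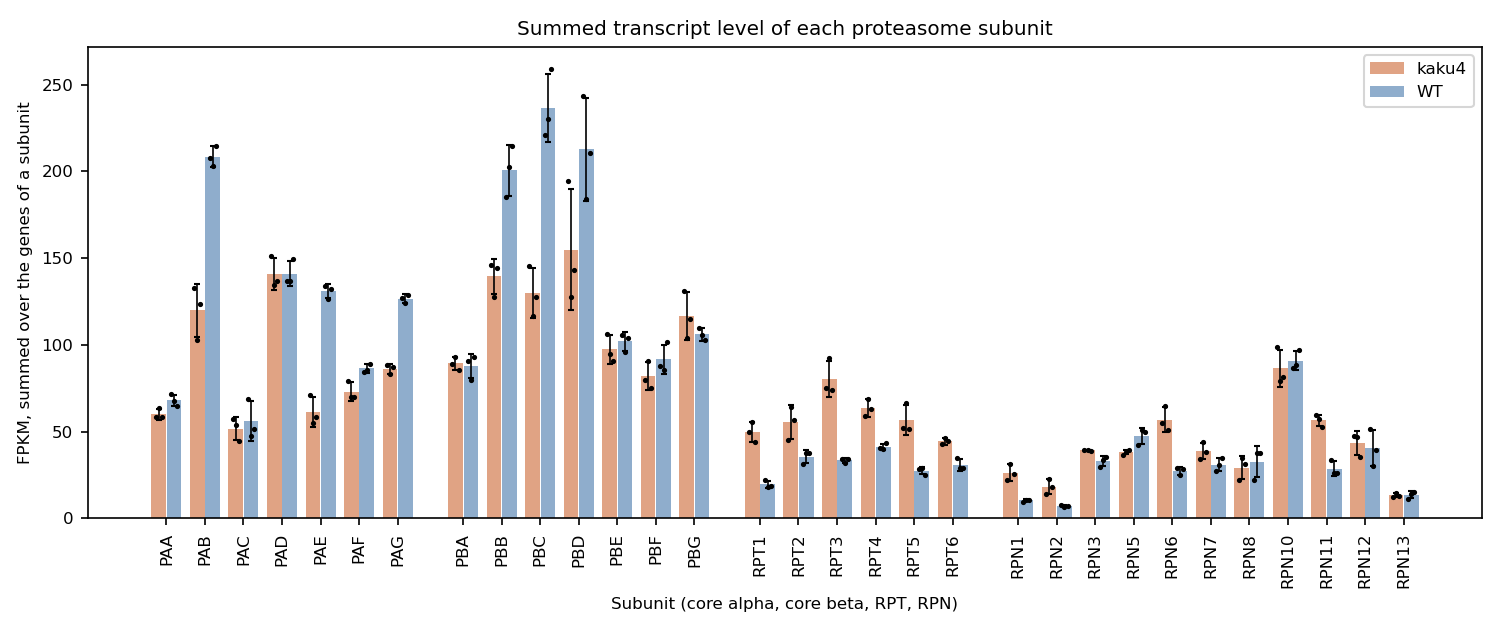
FPKM summed over the listed genes of each subunit in *kaku4* and WT, from 0, as means (bars) with the SD (error bars) and the 3 libraries (points). The alpha and beta sums are mostly above 50 FPKM, and the 6 RPT sums are higher in *kaku4* than in WT in every library.

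A ratio within a library does not depend on how libraries are scaled. The median core gene had 1.66, 1.37 and 1.49 times the FPKM of the median regulatory gene in *kaku4*, against 3.34, 2.72 and 2.86 times in WT. With the length trend removed the ratio was 1.84, 2.03 and 1.79 in *kaku4*, against 2.69, 2.46 and 2.59 in WT. The genotypes did not overlap in either form. As this is a score over chosen members, no p is given.

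Paralog pairs. For 13 subunits 2 genes of the list could be set against each other within each library. The share of the first gene did not overlap between genotypes in 7 pairs. How often this occurs in other gene pairs was not computed, so the count has no background. Taken singly, 33.5% of all genes tested were higher and 31.3% lower in every *kaku4* library. Each of the 7 had the smallest p that 3 against 3 libraries allow (exact permutation test, two-sided, p = 0.1, adjusted p = 0.186 over 13 pairs), so no pair can pass 0.05. The largest shift was in PBE, where *PBE1* carried 80.1%, 84.6% and 84.0% of the pair in *kaku4*, against 69.0%, 67.1% and 71.5% in WT. The log2 ratio of *PBE1* to AT3G26340 was higher in *kaku4* by 1.11, or 0.90 with the length trend removed. *RPT2a* carried 80.0%, 79.9% and 82.7% of its pair in *kaku4*, against 66.2%, 74.5% and 72.7% in WT. *RPT4A* carried 36.8%, 39.1% and 37.9% in *kaku4*, against 27.2%, 29.1% and 29.8% in WT, and remained the minor gene beside AT1G45000. *RPT6A* carried less in *kaku4*, with 66.4%, 69.2% and 65.9%, against 71.2%, 73.5% and 74.8% in WT, and the difference of -0.41 in log2 ratio was -0.74 with the length trend removed.

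The other 3 pairs without overlap moved less or changed more with transcript length. *PBD1* carried 45.9%, 39.4% and 40.6% in *kaku4*, against 58.7%, 50.7% and 49.4% in WT, its partner *PBD2* having 105, 77.2 and 85.1 FPKM in *kaku4* and 100.4, 90.9 and 106.7 FPKM in WT. *PBD1* is 872 and *PBD2* 1336 nucleotides long, and the difference of -0.64 in log2 ratio was -0.23 with the length trend removed. *PAE1* carried 49.7%, 49.8% and 50.2% in *kaku4*, against 41.7%, 48.6% and 44.7% in WT. *RPT5A* carried 85.0%, 82.9% and 84.0% in *kaku4*, against 82.3%, 82.0% and 81.2% in WT, a difference of 0.22 that was 0.07 with the length trend removed. In the 6 remaining pairs, PAA, PAB, PAD, PAF, PBB and PBC, the genotypes overlapped. No pair shares an identical stretch of 150 bases, the read length, and the longest identical run was between 23 and 104 bases, longest in RPT6.

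**Figure D4:**
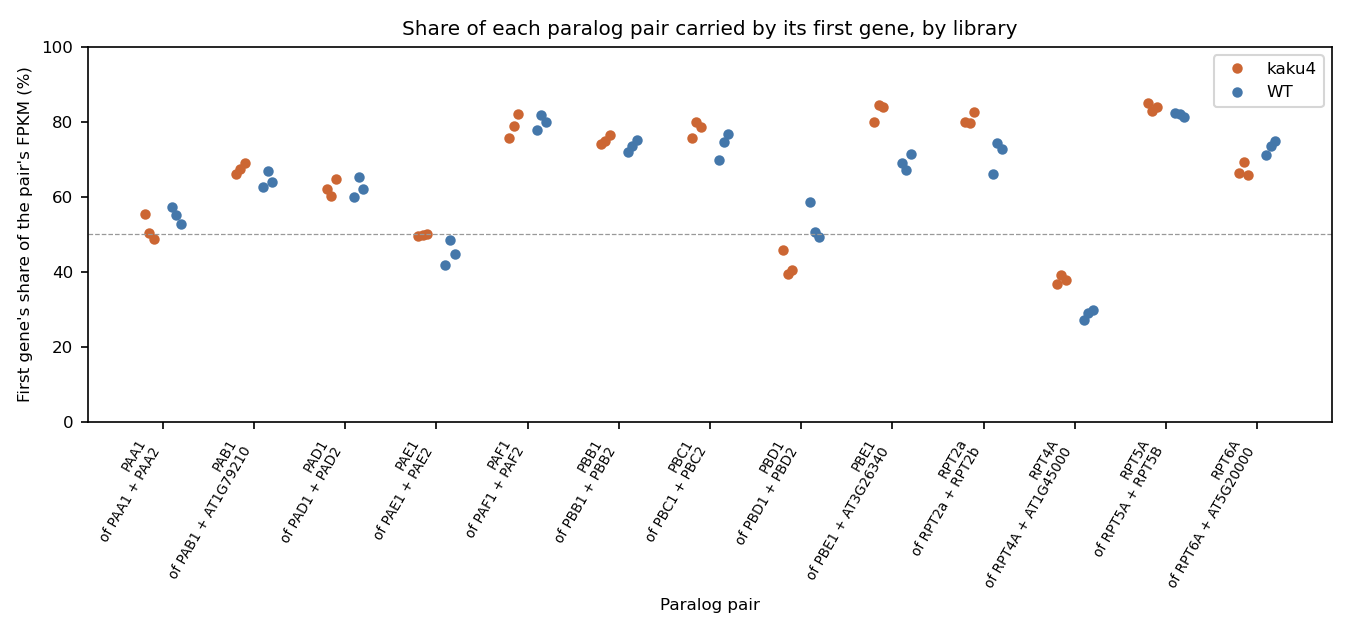
Share of the summed FPKM of each of 13 paralog pairs carried by the first gene named, in percent, in each *kaku4* and WT library. The genotypes do not overlap in 7 pairs, a count without a background, with the widest gap in *PBE1* and AT3G26340.

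Transcript length moved with the division between the particles. Core transcripts are 872 to 1469 nucleotides long, RPT transcripts 1524 to 2228 and RPN transcripts 1334 to 3517. Over the 44 genes Spearman's rho between length and log2 fold change was 0.72. Within classes it was 0.27 for alpha, 0.46 for beta, 0.02 for RPT and 0.38 for RPN genes (descriptions over 10 to 12 genes each, which share the same libraries). With the length trend removed, 8 of the 10 RPT genes rose, against a background of 20.2%, and none fell. The exceptions were *RPT2b* and *RPT6A*. Of the 11 RPN genes 4 rose and 1, *EMB2107*, fell. Of the 23 core genes, 5 then fell and 6 rose, where 20.0% of all genes fell and 20.2% rose. Both core counts were near these shares. The 5 were AT1G79210, *PAE1*, *PAE2*, *PBC2* and AT3G26340, and the 6 were *PAD1*, *PAD2*, *PBA1*, *PBE1*, *PBF1* and *PBG1*, with log2 fold changes between 0.38 and 0.60. Past the fold criterion were 5 genes that rose and 0 that fell, against 7.77% and 5.21% of all genes. The part of transcript length in the measured division was not tested beyond this. In all 18 alternative fits, which include the other scalings, 10 genes rose (*RPT1A*, *RPT2a*, *RPT3*, *RPT4A*, *RPT5A*, *RPT5B*, AT5G20000, *RPN1A*, ATS9 and AT5G23540), and the 5 core genes above fell. The share of all genes that kept a call in all 18 fits was not computed. These counts therefore have no background, and in the main fit alone 28.6% of all genes rose and 28.3% fell.

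**Figure D5:**
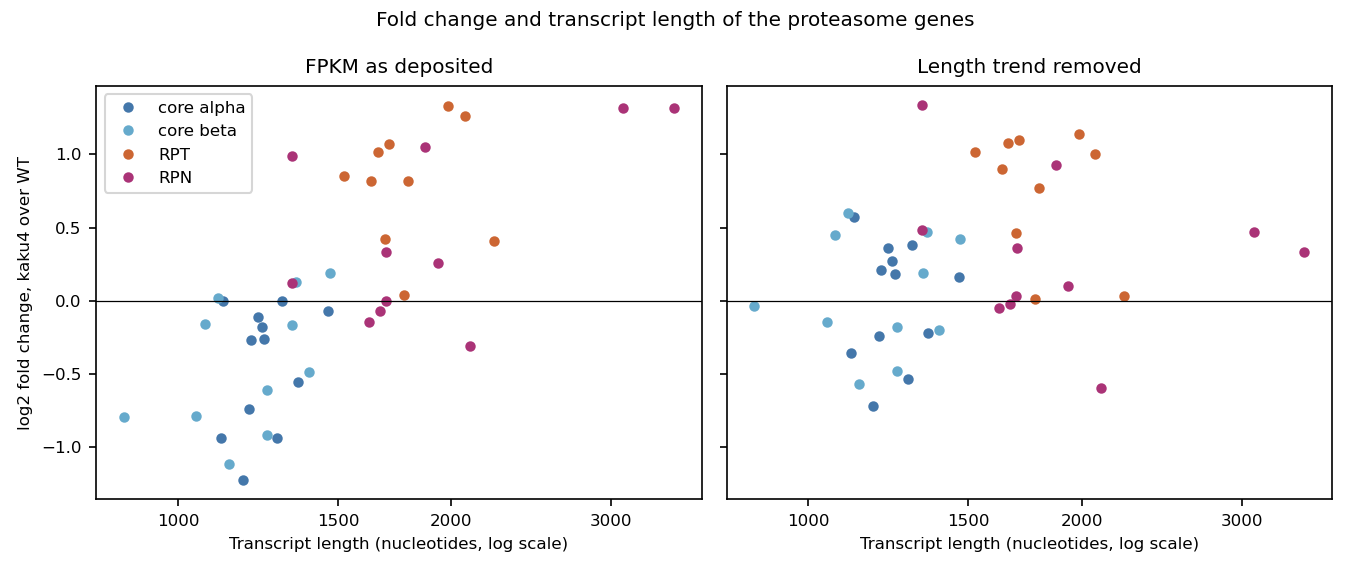
Log2 fold change of *kaku4* over WT against transcript length on a log scale for the 44 proteasome genes, from the FPKM as deposited (left) and with the length trend removed (right). On the left the core genes, 872 to 1469 nucleotides long, lie mostly below 0, and on the right they lie on both sides of 0 while the RPT genes stay at or above 0.01.

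Other genes of the pathway were taken as a list of 39, of which 21 rose in *kaku4*, 7 fell and 11 did not pass, where 28.6% of all genes rose and 28.3% fell. As the list was chosen with earlier results of these data known, these shares are a description and not a test of the list. The median log2 fold change of the list was 0.71, or 0.50 with the length trend removed, when 21 rose and 3 fell, where 20.2% of all genes rose and 20.0% fell. Of the 5 polyubiquitin genes, which encode chains of ubiquitin units, 4 rose. *UBQ10* had 1709, 1454 and 1230 FPKM in *kaku4*, against 614.6, 417.5 and 437.7 FPKM in WT (log2 fold change 1.59, adjusted p = 6.22e-04). *UBQ3*, *UBQ4* and *UBQ11* also rose, while *UBQ14* had a log2 fold change of 0.57 and did not pass (adjusted p = 0.0591), although it passed without replicate 1 of WT (adjusted p = 0.0101), after rescaling to a common sum or quantile normalization (adjusted p = 0.00113 and 0.00233) and with the length trend removed (adjusted p = 0.0323). *CDC48* (AT3G09840), an ATPase that extracts ubiquitinated proteins and hands them to the proteasome, had 92.2, 141.9 and 113.3 FPKM in *kaku4*, against 32.1, 36.2 and 39.5 FPKM in WT (log2 fold change 1.67, adjusted p = 3.11e-04, or 0.90 with the length trend removed). The ubiquitin-activating enzyme genes *UBA1* and *UBA 2* rose by 1.09 and 1.57 on the log2 scale, and with the length trend removed they were at 0.02 and 0.58, of which *UBA1* did not pass (adjusted p = 0.908).

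*NAC053*, the gene of NAC53, had 5.04, 5.12 and 5.98 FPKM in *kaku4*, against 2.13, 2.30 and 2.50 FPKM in WT (log2 fold change 1.18, adjusted p = 7.79e-04, or 0.61 with the length trend removed). The gene of NAC78, listed under the symbol *NAC2* (AT5G04410), had a log2 fold change of 0.17 and did not pass (adjusted p = 0.32), although it passed at 0.68 after rescaling to a common sum (adjusted p = 0.0153). *PA200*, which encodes an alternative cap of the core particle, had 8.49, 15.04 and 10.6 FPKM in *kaku4*, against 2.37, 2.86 and 2.69 FPKM in WT. It rose by 2.03 on the log2 scale (adjusted p = 3.49e-04), but its transcript of 5907 nucleotides is the longest of the list, and with the length trend removed the value was 0.60. The 2 loci for the core assembly factor UMP1, AT1G67250 and AT5G38650, fell by 0.77 and 0.62 (adjusted p = 0.017 and 0.0041), but with the length trend removed they were at 0.08 and 0.19. Both genes of DSS1, a small lid subunit, fell, by 0.94 for DSS1(I) and 0.85 for DSS1(V), and neither passed with the length trend removed (adjusted p = 0.59 and 0.305). Among these, DSS1(I) also did not pass when any library other than replicate 1 of *kaku4* was left out, and AT1G67250 did not without replicate 1 of WT or replicate 3 of *kaku4* (adjusted p = 0.0581 and 0.0514).

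Of the 7 shuttle receptors, which carry ubiquitinated proteins to the proteasome, 5 rose and 1 fell. *DSK2* had 74.2, 73.3 and 65.7 FPKM in *kaku4*, against 42.8, 40.4 and 47.4 FPKM in WT (log2 fold change 0.71, adjusted p = 0.00168). *RAD23B* was the gene that fell, with a log2 fold change of -0.43, although it was at 0.08 when libraries were rescaled to a common sum. *UBP6*, a deubiquitinase bound to the regulatory particle, rose by 0.92 (adjusted p = 0.0036). Of the 12 further isoform genes for subunits outside the 44, 4 rose and 4 fell, which is near the shares of 28.6% and 28.3% over all genes. AT1G04810, like AT2G32730 an RPN2-type gene, rose by 1.54, and AT1G75990, annotated as a lid subunit, by 1.36 (adjusted p = 4.97e-04 and 8.80e-04). With the length trend removed AT1G04810 was at 0.57, while AT1G75990 was 2.46-fold higher. *RPN12b* had at most 0.569 FPKM in *kaku4* and at most 1.49 FPKM in WT, and its fall of 1.83 rests on these low values. It did not pass with the length trend removed (-1.14, adjusted p = 0.147) or after rescaling to a common sum (-1.42, adjusted p = 0.0544). Nor did it pass with replicates 2 and 3 alone (adjusted p = 0.059) or without replicate 1 of WT (adjusted p = 0.05001).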

How the data were processed

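Leaf RNA from 6-week-old *kaku4* and WT plants was sequenced as paired 150-base reads, with 3 libraries per genotype. TopHat2 2.0.9 was used by the authors for alignment to TAIR10, and they deposited FPKM values calculated with Cufflinks, both at default parameters. FPKM divides fragments by transcript length and mapped fragments, so the values do not carry counts per gene and the precision rests on the spread of 3 libraries. The paper lists the mapped reads of each library, which were not used here. Of 24492 loci listed, 1442 had no value and were left out. Genes whose mean reached 0.1 FPKM were tested on log2(FPKM + 0.1) with limma 3.58.1 (R 4.3.3, eBayes with a trend, no covariates, Benjamini-Hochberg over 20618 genes), which was also tested on simulated data. Fold changes on this scale understate the change of low genes. The call criteria were an adjusted p of at most 0.05, alone or with a log2 fold change of 1 or more, or of -1 or less.

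Transcript lengths, symbols, coordinates and upstream sequence came from RefSeq TAIR10.1, matched by locus. For the length-corrected values a lowess curve (span 0.4) was subtracted in each library, with 154 genes of unknown length left unadjusted. Any real change that runs with length is lost in this step as well. The members and gene lists were chosen with earlier results of these data known. Values of every library were given for *KAKU4*, for members past both criteria, for the 5 highest and 5 lowest fold changes and for pairs without overlap. Other values were given where a role called for them. From the list of 40 other pathway genes 1 was dropped, because its annotation did not name the role. The ChIP-seq samples were not analysed here.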

Additional observations from a re-analysis of the deposited data

How the results depend on the processing

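The values rest on 3 libraries per genotype, FPKM carry no depth, and the scaling between libraries decides how many core genes fell. Rescaling libraries to the same sum moved the median log2 fold change of all genes to 0.49, or 0.48 with the same nuclear sum, and centring them on their median moved it to -0.19. The median of the 44 proteasome genes was 0.51 and 0.51 after these 2 rescalings, -0.20 after centring, 0.32 after quantile normalization and 0.24 with the length trend removed. Genes that rose numbered 23 and 24 after the 2 rescalings and 21 after quantile normalization, and genes that fell 5, 5 and 6, with 6 after removal of the length trend. Centring went the other way, with 11 genes that rose and 15 that fell, *PAA1*, *PAF1*, *PBF1* and *EMB2107* being added as lower. With the fold criterion, 11 genes rose after each rescaling and 4 after centring. Those that fell with the fold criterion were 5 after centring and 0 after quantile normalization, after either rescaling and with the length trend removed. With replicates 2 and 3 alone 5 fell by this criterion. All 13 genes that rose and all 11 that fell were kept there.

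Among single genes, *PBB1* turned to 0.02 under both rescalings and quantile normalization, AT4G19006 and *RAD23B* to 0.08 under both rescalings, and with the length trend removed AT1G53780 to -0.02, *RPN1B* to -0.04, *AtCDC48B* to -0.05, AT1G67250 to 0.08 and AT5G38650 to 0.19. Leaving out 1 library at a time gave 4 to 8 genes that rose and 1 to 6 that fell with the fold criterion. The pseudocount, the filter on low values and the variance model kept all 24 calls. With another pseudocount or with libraries left out, none of the 13 paralog ratios moved by more than the spread between replicates. Removal of the length trend moved that of PBD from -0.64 to -0.23 and that of RPT6 from -0.41 to -0.74. Other ratios moved less, such as that of PBE from 1.11 to 0.90. Those of PAA and PBB changed sign, from -0.21 to 0.05 and from 0.12 to -0.02.

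The sample labels do not say whether the replicate numbers pair samples. Replicate 1 stood apart in both genotypes, with chloroplast sums of 30590 FPKM in *kaku4* and 44360 FPKM in WT. The other libraries had between 499 and 945 FPKM. Whether the replicate 1 libraries share a batch was not tested. Same-numbered libraries of the 2 genotypes correlated in their deviations by 0.31, 0.08 and 0.01, and only replicate 1 correlated best with its own number. With the replicate block 13 proteasome genes rose and 12 fell, the added gene being *EMB2107*, and genes called by adjusted p over the whole table numbered 12478 with the block and 11749 without it. Of the other pathway genes, *UBQ14* then passed as higher and AT5G45620 as lower (adjusted p = 0.00485 and 0.0495).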
